A study of Mus musculus with 6 samples.

Results

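The Hedgehog pathway genes followed here are Shh, Ihh, Dhh, Ptch1, Smo, Hhip, Gli1, Gli2 and Gli3, which are 9 of the 34745 genes in the deposited table and were found by their gene symbols, each in 1 row. All 9 were expressed strongly enough to be tested. The RNA came from the prostates of 6 male C57BL/6 mice, 3 in each group. Mice of the T + E2 group carried a subcutaneous slow-release pellet of testosterone and estradiol, renewed monthly, for 12 weeks, and served as a model of benign prostatic hyperplasia. Mice of the control group (CON group) had the skin incision and its closure without any pellet, so the operation was shared by both groups and no hormone-free pellet was used. The mice were 6 to 8 weeks old at the start.

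Hedgehog proteins are secreted ligands. Without a ligand, the receptor Ptch1 keeps the membrane protein Smo silent; when a ligand binds Ptch1, Smo becomes active in the primary cilium and the transcription factors Gli1, Gli2 and Gli3 change gene expression. Gli1, Ptch1 and Hhip are themselves target genes of the pathway, and their transcripts are commonly read as a sign of its activity. In the developing prostate Shh is made by the epithelium and is received by the surrounding mesenchyme.

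Between 14816146 and 16555549 reads were counted on genes per mouse, and 3 counts, taken as the detection limit, were worth 0.183 to 0.208 CPM (counts scaled to library size), a limit that covers counting error only. The labelled tissue was checked against 5 defining genes of prostate epithelium, and all 5 were expressed in every mouse. They did not share a direction, since Pbsn and Tgm4 were lower, Msmb and Spink1 were higher and Hoxb13 did not pass the test. A pair of libraries stood apart from the rest. Genes of the seminal vesicle, a neighbouring gland, summed to 10290 CPM in CON mouse 2 and to 642.4 CPM in T + E2 mouse 2, against 0.629 to 3.84 CPM in the other 4 mice, and CON mouse 2 also had the highest sum of fat genes, 330.9 CPM against 42.9 to 93.9 CPM, and of skeletal muscle genes, 255.9 CPM against 68.6 to 176.6 CPM. Of 5 genes of the epididymis and vas deferens, Adam7 (0 counts in every CON mouse, 81 to 158 in the T + E2 mice) and Defb2 (2 to 8 and 37 to 67 counts) were higher in the T + E2 group, Lcn5 and Lcn8 were at 0 in all 6 mice, and Crisp1 had at most 13 counts, in CON mouse 2. The part of neighbouring tissue in the values of the Hedgehog pathway genes was not tested. In whole tissue, fewer cells of a type and less RNA per cell cannot be told apart.

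Of the 9 Hedgehog pathway genes, Smo alone differed between the groups by edgeR's quasi-likelihood test at an adjusted p under 0.05. It was higher in the T + E2 group. Of all 15580 tested genes 19.6% passed, 10.4% being higher and 9.25% lower in the T + E2 group, so that 1 of 9 (11.1%) was not above the background. This background rested on all 6 mice, since 3061 genes passed with them, 1978 without T + E2 mouse 2, 1929 without CON mouse 3 and 1354 without both mice numbered 2, when no member passed. No member was a differentially expressed gene (DEG), which also needed an absolute log2 fold change over 1 and was met by 7.64% of all tested genes, 4.27% in the higher and 3.38% in the lower direction. Without adjustment, 4 members had a p under 0.05, namely Smo, Dhh, Gli1 and Hhip, against 34.5% of all tested genes. In CPM scaled by the TMM method, the groups did not overlap for 3 members, Smo and Hhip with higher and Gli1 with lower values in the T + E2 group, against 40.7% of all tested genes, 20.0% higher and 20.7% lower. The median log2 fold change of the members was -0.09, that of all tested genes -0.002, and the median absolute log2 fold change was 0.28 for the members and 0.26 for all tested genes.

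**Figure D1:**
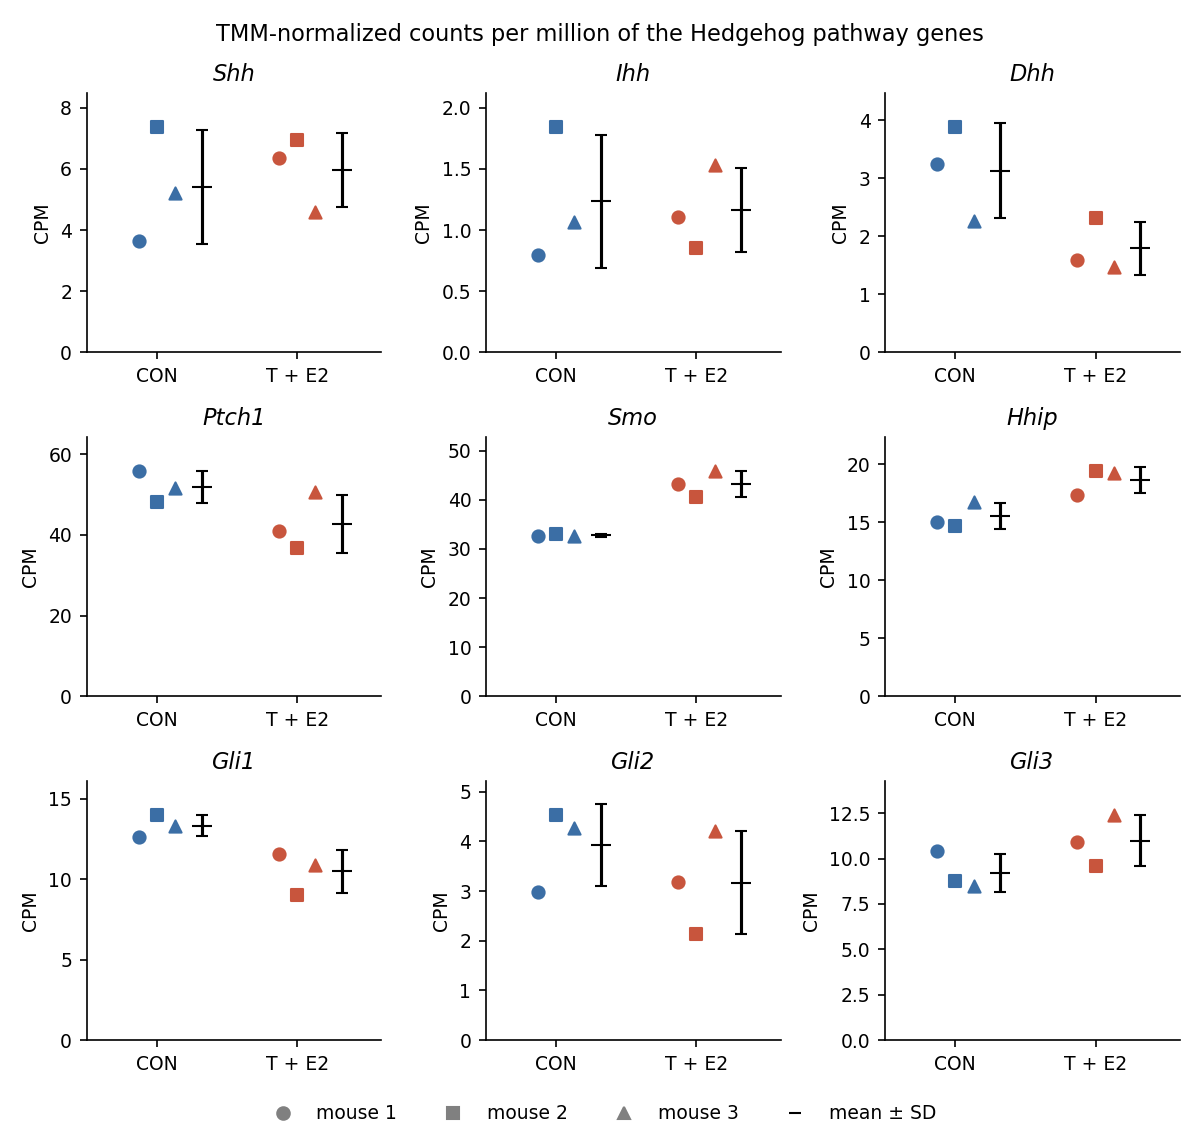
TMM-normalized CPM (vertical axes, each starting at 0) of the 9 Hedgehog pathway genes in the CON and T + E2 groups, with 1 symbol per mouse and the mean ± SD beside each group. The groups are separated for Smo, Hhip and Gli1, whereas the values of the other 6 genes overlap.

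Levels per length were compared in FPKM, which divides counts by gene length and library total. The lengths behind the deposited FPKM are not those of GENCODE M21 for 8 of the 9 genes (Hhip 5129 against 9076 bases, Gli1 3665 against 4995, Ptch1 16688 against 14185), so the order was also taken with the M21 lengths, an alternative added after the data were seen. Smo had the highest level in both groups with either length, with 5.28 ± 0.12 FPKM (SD, n = 3) in the CON group and 6.78 ± 0.526 FPKM (SD, n = 3) in the T + E2 group as deposited. Gli1, Ptch1 and Hhip came next in the deposited values of the CON group, with 3.68 ± 0.208, 3.14 ± 0.238 and 3.06 ± 0.166 FPKM. With M21 lengths Ptch1 (3.7 ± 0.28) lay above Gli1 (2.7 ± 0.153), and Hhip (1.73 ± 0.0936) fell into the range of Shh. In the CON group Gli1 thus lay above Hhip with either length, while the place of Ptch1 among these 3 genes depended on the lengths. In the T + E2 group Hhip had 3.59 ± 0.312, Gli1 2.82 ± 0.327 and Ptch1 2.53 ± 0.472 FPKM as deposited, but 2.03 ± 0.176, 2.07 ± 0.24 and 2.98 ± 0.555 FPKM with M21 lengths. Shh, whose lengths were equal in both, had 1.92 ± 0.679 FPKM in the CON group and 2.06 ± 0.396 FPKM in the T + E2 group, the highest mean of the ligands with either length. Its range overlapped that of Dhh in the deposited values of the CON group, but not in the T + E2 group. Dhh had 1.34 ± 0.369 and 0.748 ± 0.194 FPKM as deposited, and Gli3 0.9 ± 0.109 and 1.05 ± 0.149 FPKM. Gli2 with 0.543 ± 0.114 and Ihh with 0.325 ± 0.146 FPKM were lowest in the CON group as deposited and overlapped. With M21 lengths the range of Dhh overlapped that of Gli2 in both groups. In the T + E2 group the mean of Dhh (0.402 FPKM) was then below that of Gli2 (0.456 FPKM).

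**Figure D2:**
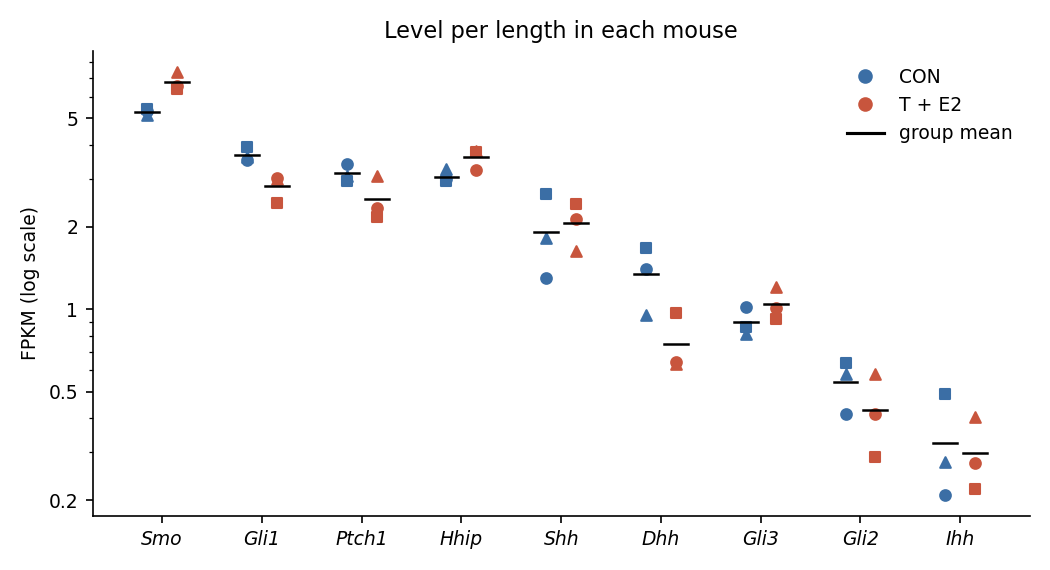
FPKM of each Hedgehog pathway gene (log scale) in every mouse, with the gene lengths of the deposited table, ordered by the mean of the CON group, with circles, squares and triangles for mice 1, 2 and 3 and a bar for the group mean. Smo is highest at 5.15 to 7.38 FPKM and Ihh lowest at 0.21 to 0.489 FPKM over the 6 mice.

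The 3 ligands and Gli2 had the lowest counts of the 9 genes. Shh (sonic hedgehog, minus strand of chromosome 5 of GRCm38, 28456815 to 28467256) had 3.64, 7.36 and 5.22 CPM in the CON mice and 6.36, 6.94 and 4.61 CPM in the T + E2 mice. Mouse 2 of each group was highest and the T + E2 values lay within the range of the CON values. The log2 fold change was 0.14 ± 0.28 (SE, edgeR adjusted p = 0.76), with a 95% interval from -0.51 to 0.8, so that changes of up to 1.74-fold upward or down to 0.701-fold were compatible with these mice. It was -0.07 without CON mouse 1, 0.43 without CON mouse 2 and 0.02 without T + E2 mouse 2. The 3 genes with the pattern most like that of Shh, by the root mean square difference of centred log2 CPM over the 6 mice, were 1110019D14Rik (0.081), 1700096K18Rik (0.1) and 2700046G09Rik (0.117).

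Ihh (Indian hedgehog, minus strand of chromosome 1, 74945315 to 74951672), best known from cartilage and gut, was counted 12 to 28 times per mouse. It had 0.795, 1.84 and 1.07 CPM in the CON mice and 1.11, 0.852 and 1.53 CPM in the T + E2 mice. The groups overlapped throughout. Its log2 fold change of -0.09 (95% interval -1 to 0.83, edgeR adjusted p = 0.899) became 0.31 without CON mouse 2 and 0.1 without T + E2 mouse 2, so a direction could not be given at this depth.

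Dhh (desert hedgehog, minus strand of chromosome 15, 98893031 to 98898540) is the ligand made by Schwann cells of peripheral nerves and by Sertoli cells of the testis. It had 3.25, 3.88 and 2.26 CPM in the CON mice and 1.59, 2.31 and 1.47 CPM in the T + E2 mice. The lowest CON value lay just under the highest T + E2 value, and all other T + E2 values were below all CON values. Of the 9 genes Dhh had the largest absolute log2 fold change, -0.80 ± 0.3 (SE, 95% interval -1.49 to -0.1), but it did not pass the test after adjustment (edgeR adjusted p = 0.101). With single mice left out it ranged from -1.03 to -0.61. Exons of Dhh share 546 bases with Rhebl1 on the same strand in the GENCODE annotation, so reads there could have been assigned to either gene or to none.

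Genes of Schwann cells and nerves were lower in the same comparison. Of the 4 reported here, 3 fell and 1 did not pass, and their sum was 58.5 to 69.5 CPM in control mice and 30.7 to 43 CPM in hormone-treated mice. Sox10, a transcription factor that defines the neural crest and Schwann lineage, had 12.9, 11.1 and 8.74 CPM in the CON mice and 2.49, 3.84 and 4 CPM in the T + E2 mice, a difference of -1.66 ± 0.24 on the log2 scale (SE, edgeR adjusted p = 0.00259). The adhesion molecule gene Ncam1 fell by 0.99 and Prx, which encodes periaxin of myelinating Schwann cells, by 0.83 on the log2 scale (edgeR adjusted p = 0.000638 and 0.0205), whereas Cdh19 had a log2 fold change of 0.20 (edgeR adjusted p = 0.629). Expressed as a share of the summed CPM of the 4 genes, a measure chosen after the values were seen, Dhh stood at 4.67, 5.75 and 3.87% in control mice 1 to 3 and at 5.18, 5.47 and 3.42% in hormone-treated mice 1 to 3. These shares overlapped between the groups. Ncam1 had the largest mean of the 4 genes, 29.4 CPM (CON) and 14.8 CPM (T + E2). Cdh19, which did not pass, had means of 11.1 and 12.7 CPM. Shares without either gene were not taken. Whether the level of these nerve genes has a part in the Dhh values was not tested.

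**Figure D3:**
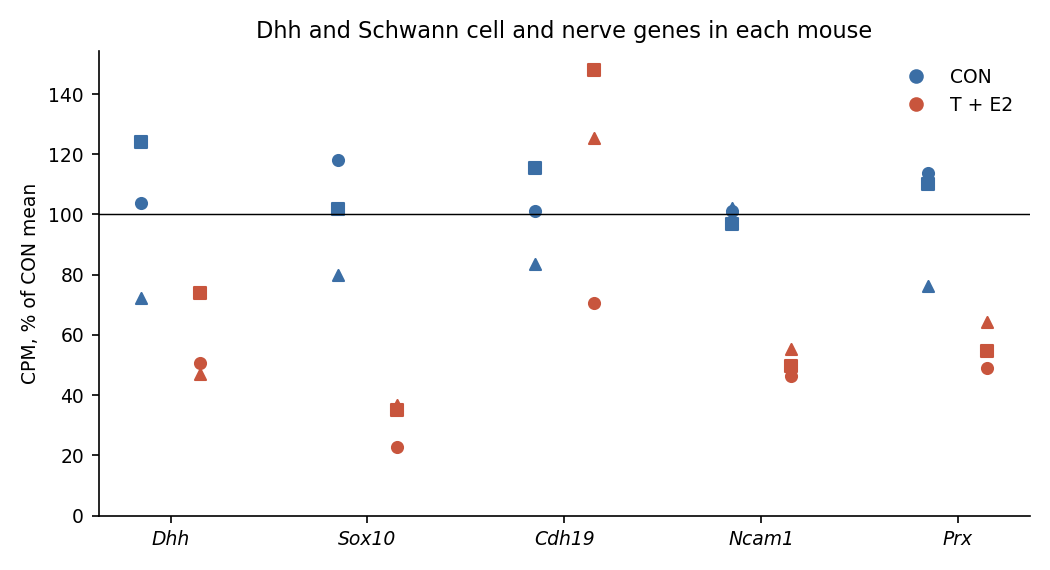
CPM of Dhh and of 4 Schwann cell and nerve genes in each mouse as a percentage of the CON mean (vertical axis from 0, line at 100%), with circles, squares and triangles for mice 1, 2 and 3. For Sox10, Ncam1 and Prx all T + E2 mice lie below all CON mice, and for Dhh a single pair of values overlaps.

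At the level of receptors, Smo and Ptch1 had log2 fold changes of opposite sign. Smo (smoothened, the transducer that Ptch1 holds inactive, plus strand of chromosome 6, 29735503 to 29761365) had 32.7, 33 and 32.6 CPM in the CON mice and 43.2, 40.5 and 45.9 CPM in the T + E2 mice. The CON mice were almost equal and every T + E2 mouse was higher. The rise was 1.32-fold, or 0.40 ± 0.09 on the log2 scale (SE, 95% interval 0.2 to 0.6, edgeR adjusted p = 0.0156), and by p-value Smo held rank 1663 of the 15580 tested genes. The call was close to the threshold. It was lost, with adjusted p-values of 0.0501 to 0.054, when CON mouse 2, CON mouse 3 or T + E2 mouse 1 was left out, and at 0.067 without both mice numbered 2, while the log2 fold change stayed between 0.31 and 0.45 over all alternatives. Transcripts of 1 other gene share a stretch of 339 bases with Smo at 97.9% identity, whose reads may have been split or dropped.

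Ptch1 (patched 1, the ligand receptor and a target gene, minus strand of chromosome 13, 63508328 to 63573598) had 55.8, 48 and 51.6 CPM in the CON mice and 41, 36.7 and 50.6 CPM in the T + E2 mice. T + E2 mouse 3 lay within the CON range and the other two lay below it. The log2 fold change was -0.28 ± 0.13 (SE, 95% interval -0.58 to 0.02, edgeR adjusted p = 0.175), and without T + E2 mouse 3 it was -0.42 and passed with an adjusted p of 0.0469 (edgeR). Ptch1 transcripts share repeated stretches of at most 169 bases with 220 genes. The ratio of Smo to Ptch1 in FPKM, again chosen after the values were seen and given as a description, was 1.55, 1.82 and 1.68 for CON mice 1 to 3, and all T + E2 mice had higher ratios, namely 2.81, 2.94 and 2.41. With M21 lengths the groups were also apart, at 1.48 to 1.73 and 2.29 to 2.79.

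Hhip (Hedgehog-interacting protein, which binds the ligands at the cell surface and limits their action, minus strand of chromosome 8, 79966115 to 80058006) had 15, 14.7 and 16.8 CPM in the CON mice and 17.4, 19.4 and 19.2 CPM in the T + E2 mice. All T + E2 values lay above the CON values, by a narrow margin. The log2 fold change of 0.27 ± 0.11 (SE, 95% interval 0.01 to 0.52) did not pass after adjustment (edgeR adjusted p = 0.133).

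Gli1 (minus strand of chromosome 10, 127329889 to 127341589), an activator whose own transcription depends on pathway activity, had 12.7, 14 and 13.3 CPM in the CON mice and 11.6, 9.01 and 10.9 CPM in the T + E2 mice. All T + E2 mice lay below all CON mice. The log2 fold change was -0.35 ± 0.14 (SE, 95% interval -0.67 to -0.03) and did not pass (edgeR adjusted p = 0.116), with a range of -0.42 to -0.25 when single mice were left out. Of the target genes, Gli1 and Ptch1 had negative and Hhip a positive log2 fold change, and none of these 3 differences passed the test. The ratio of Hhip to Gli1 in FPKM, chosen after the values were seen, was 0.849, 0.752 and 0.9 for CON mice 1 to 3 and higher in all T + E2 mice, at 1.07, 1.54 and 1.26. The groups were apart with M21 lengths too (0.579 to 0.693 and 0.827 to 1.19). With either length Gli1 was the higher of these genes in every CON mouse and Hhip in T + E2 mouse 2. In T + E2 mice 1 and 3 the higher gene depended on the lengths. The 3 genes whose pattern was most like that of Gli1 over the 6 mice, by the measure used for Shh, were Lrrc20 (0.027), Ythdf1 (0.034) and Ctif (0.035). Gli1 shares 62 exonic bases with Arhgap9 and 265 with Gm47200 on the opposite strand. Opposite-strand overlaps also exist for Shh (446 bases with 9530036O11Rik, 361 with Gm26894) and Dhh (1107 with Gm49442). Those of Hhip (175 with Gm27820) and Gli3 (188 with Gm6556) complete the list. The use of strand in counting was not given in the sources used here.

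Neither of the other Gli factors passed the test. Gli2 (minus strand of chromosome 1, 118834132 to 119053619), the main activator downstream of Smo, had 2.98, 4.53 and 4.28 CPM in the CON mice and 3.18, 2.13 and 4.2 CPM in the T + E2 mice. The groups overlapped and the log2 fold change was -0.31 (95% interval -1 to 0.38, edgeR adjusted p = 0.495), or -0.09 without T + E2 mouse 2 and 0.02 without both mice numbered 2. Gli3 (plus strand of chromosome 13, 15463235 to 15730026), which acts mainly as a repressor when the pathway is silent, had 10.4, 8.74 and 8.49 CPM in the CON mice and 10.9, 9.62 and 12.4 CPM in the T + E2 mice. CON mouse 1 exceeded T + E2 mouse 2, and the log2 fold change was 0.25 (95% interval -0.1 to 0.61, edgeR adjusted p = 0.285).

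Gli proteins bind DNA at the consensus GACCACCCA. Of the 9 genes, 7 could be matched to a RefSeq promoter of build GRCm38.p6, from 250 bases before to 50 bases after the start that RefSeq gives, and none of these 7 windows held the motif on either strand (TGGGTGGTC on the other). Among all 32851 promoters of this length 0.253% held it. The RefSeq start lies 7863 bases inside the gene of the deposited table for Ptch1 and 488 bases inside it for Gli3, and within 6 bases of its start for the other 5, so other promoters of Ptch1 and Gli3 were not searched. No promoter was matched for Shh and Gli1.

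Of 50 further genes of the pathway in 5 lists, 45 could be tested and 8 passed, 5 of them higher and 3 lower in the T + E2 group. This was 17.8% of the tested genes, beside the background of 19.6%, and their median log2 fold change was 0.04. Without both mice numbered 2 only Scube2 passed. In the group of ligand processing and release, with 5 of 6 genes tested, Scube2 was the only gene that passed and the only DEG of the 45. Scube2 is a secreted protein that helps to release lipid-modified Hedgehog ligand from the cells that make it. It had 13.1, 11.2 and 12.4 CPM in the CON mice and 6.16, 4.08 and 3.6 CPM in the T + E2 mice. Every T + E2 mouse was well below every CON mouse, a fall to 0.377-fold, or by 1.41 ± 0.22 on the log2 scale (SE, edgeR adjusted p = 0.00335), which passed in every alternative analysis. Its relative Scube1, named after its values were seen, had 22.3, 22.7 and 14.3 CPM in the CON mice and 3.25, 6.09 and 13.2 CPM in the T + E2 mice. The T + E2 values varied widely, and the log2 fold change of -1.39 ± 0.44 (SE) missed the threshold (edgeR adjusted p = 0.0586) but passed without T + E2 mouse 3 (-2.07, adjusted p = 0.00921). Hhat, Disp1 and Disp2, which attach the lipid and export the ligand, did not pass, with log2 fold changes of -0.17, -0.18 and 0.30.

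Among co-receptors, 4 of 5 genes were tested and only Gas1 passed. Gas1, a membrane-anchored protein that helps the ligand to bind Ptch1, had 108.4, 98.3 and 101.8 CPM in the CON mice and 79.2, 89.8 and 78 CPM in the T + E2 mice. The groups were apart, but the log2 fold change of -0.32 only just passed (edgeR adjusted p = 0.0498) and 5 of 6 analyses with 1 mouse left out did not pass. The co-receptors Boc and Cdon had log2 fold changes of 0.11 and 0.12 (edgeR adjusted p = 0.469 and 0.487).

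Of 18 cytoplasmic transducers and regulators of the Gli proteins, 1 was higher and 1 lower, or 11.1% beside 19.6% of all tested genes. Prkaca, the catalytic subunit of protein kinase A that marks Gli proteins for processing into repressors, had 83.9, 84.5 and 90.2 CPM in the CON mice and 66.8, 63.8 and 68.9 CPM in the T + E2 mice. Btrc, which recruits the ubiquitin ligase to phosphorylated Gli proteins, had 52.1, 45 and 46.4 CPM in the CON mice and 58.5, 60.8 and 62.3 CPM in the T + E2 mice. Their groups did not overlap, with log2 fold changes of -0.37 and 0.34 (edgeR adjusted p = 0.019 and 0.0365), though 3 of 6 and 5 of 6 analyses with 1 mouse left out, respectively, did not pass. Sufu, the main cytoplasmic inhibitor of the Gli proteins, had a log2 fold change of -0.10 (95% interval -0.37 to 0.16, edgeR adjusted p = 0.573).

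Of 10 genes of the primary cilium, 2 were higher and none was lower. This was 20.0%, beside 19.6% of all tested genes, 10.4% being higher and 9.25% lower. Arl13b, a small GTPase of the ciliary membrane, had 10.3, 11.2 and 8.36 CPM in the CON mice and 13.6, 16.9 and 15 CPM in the T + E2 mice, and Rpgrip1l, a protein of the transition zone at the base of the cilium, had 8.41, 8.08 and 7.67 CPM against 12.5, 13.7 and 10.2 CPM. Both were higher in every T + E2 mouse, by 0.61 and 0.59 on the log2 scale (edgeR adjusted p = 0.0294 and 0.0306). Arl13b did not pass in 4 and Rpgrip1l in 5 of 6 analyses with 1 mouse left out. Of 11 other genes reported as Hedgehog targets, 8 were tested and Ccnd2 and Hsd11b1 were higher, or 25.0% of those tested. Ccnd2, a cyclin of the G1 phase, had 40.7, 42.9 and 50.9 CPM in the CON mice and 65.4, 63 and 67.9 CPM in the T + E2 mice, higher by 0.54 on the log2 scale (edgeR adjusted p = 0.0101), which did not pass without both mice numbered 2 (adjusted p = 0.0771). Hsd11b1, which regenerates active glucocorticoid, had 12.2, 11.1 and 9.87 CPM in the CON mice and 16.1, 19.6 and 14.8 CPM in the T + E2 mice (edgeR adjusted p = 0.027), but 4 of 6 analyses with 1 mouse left out did not pass. The other 6, Foxf1, Foxf2, Ccnd1, Bcl2, Bmp4 and Igfbp6, had log2 fold changes from -0.59 to 0.28. The lowest was that of Ccnd1, detailed after its values were seen, which missed the threshold (edgeR adjusted p = 0.0569). It had 71.4, 115.3 and 118.6 CPM in the CON mice and 67.5, 66.2 and 69.4 CPM in the T + E2 mice, without overlap. Ccnd1 passed under DESeq2, with library totals alone and without CON mouse 1.

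**Figure D4:**
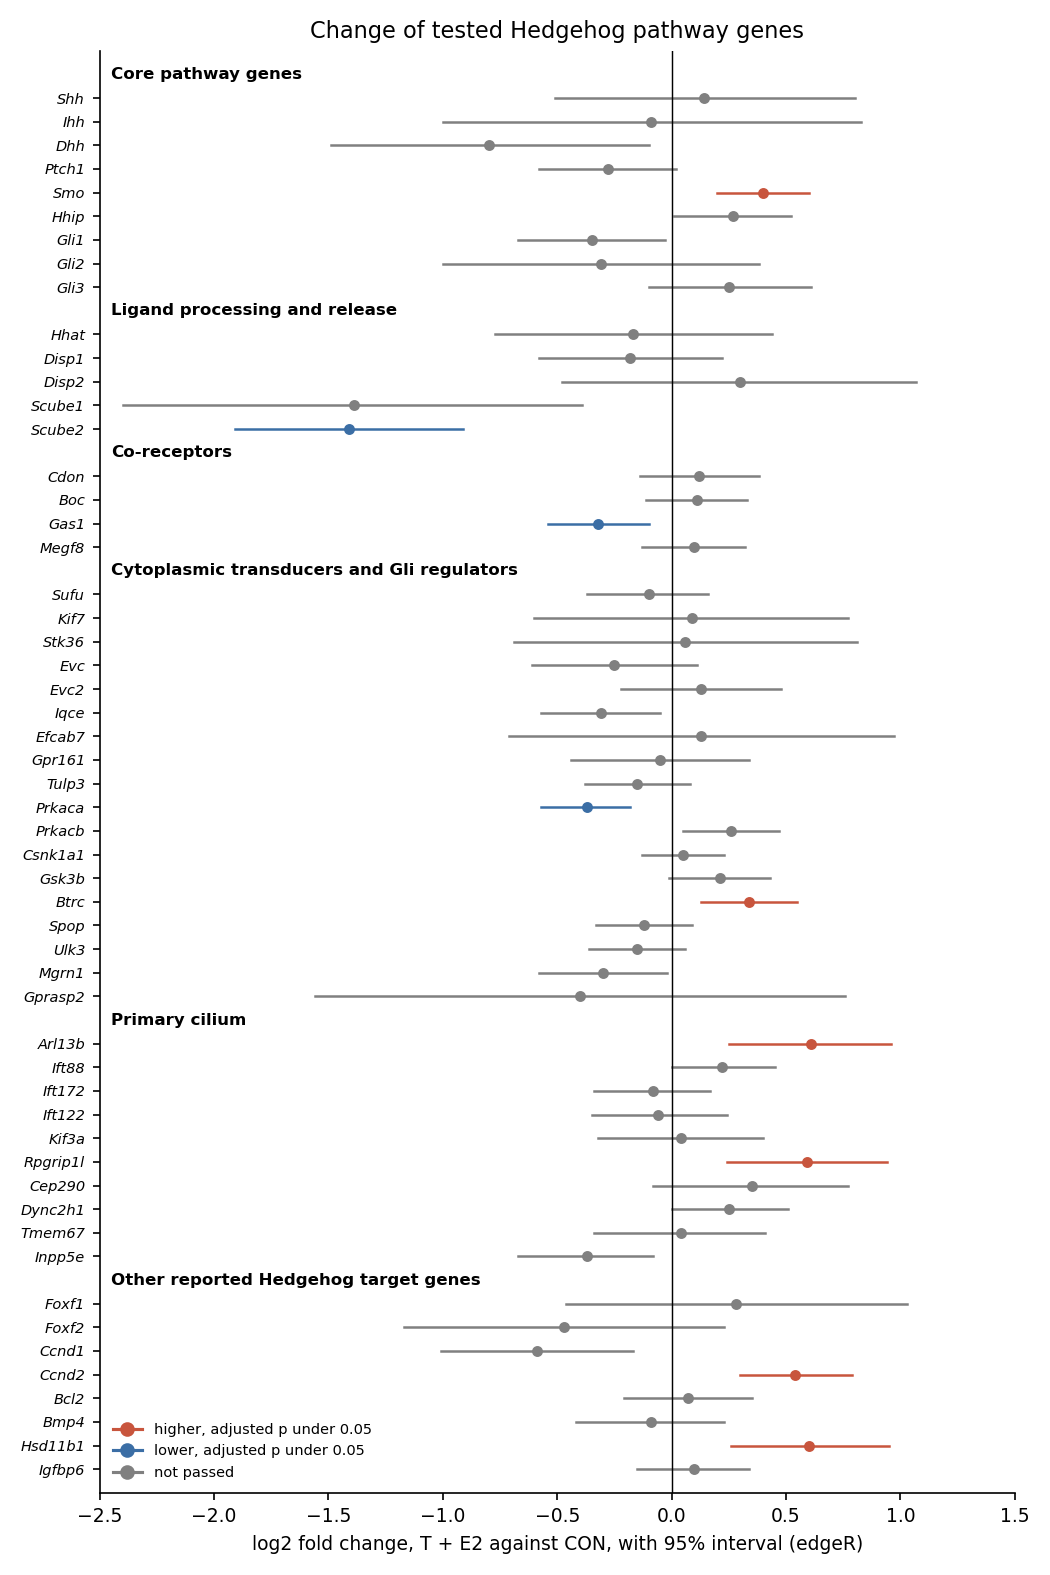
Log2 fold change of T + E2 against CON (horizontal axis) with its 95% interval, unadjusted for multiple tests, for the 9 core genes and the 45 tested genes of the 5 further lists. Coloured points passed an adjusted p of 0.05, which was the case for Smo and for 8 of the further genes, and Scube2 lies farthest from 0 at -1.41.

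Because the Hedgehog signal is received mainly by stroma, the members were also set against listed stromal genes. The 6 fibroblast genes summed to 1602 to 1730 CPM in the CON group and 1675 to 2030 CPM in the T + E2 group, with overlapping groups, and none of the 6 passed the test. Dcn had the largest part of this sum, with means of 866.7 CPM (CON) and 1091 CPM (T + E2). Its log2 fold change was 0.33, whereas 4 of the 6 genes had a negative one. Ratios to the fibroblast sum therefore weigh Dcn most, and ratios without Dcn were not taken. The 7 smooth muscle genes summed to 4143 to 5141 CPM in the CON group and 3628 to 3969 CPM in the T + E2 group, without overlap, and 3 of them fell, among them Acta2 by 0.50 on the log2 scale (edgeR adjusted p = 0.0137). The log2 ratio of Gli1 to the fibroblast sum was lower by 0.46 in the T + E2 group, with separated groups, and by 0.27 without T + E2 mouse 2, whereas its ratio to the smooth muscle sum differed by -0.05 and overlapped. The log2 ratio of Smo to the smooth muscle sum was higher by 0.70, with separated groups, and that to the fibroblast sum was higher by 0.29 (0.19 without T + E2 mouse 3), where T + E2 mouse 2 reached into the CON range. Ptch1 differed by -0.40 against fibroblast and by 0.01 against smooth muscle genes, and Hhip by 0.16 and 0.57, or by 0.02 against fibroblast genes when FPKM took the place of CPM. Separated groups gave p = 0.1 in the exact two-sided permutation test, the smallest p that 3 mice against 3 allow, and overlapping ones gave 0.2 to 0.9. Taking smooth muscle in place of fibroblast genes shifted the difference of all 9 genes alike by 0.41, which is the change between the 2 sums, and which cells the reads came from was not tested.

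**Figure D5:**
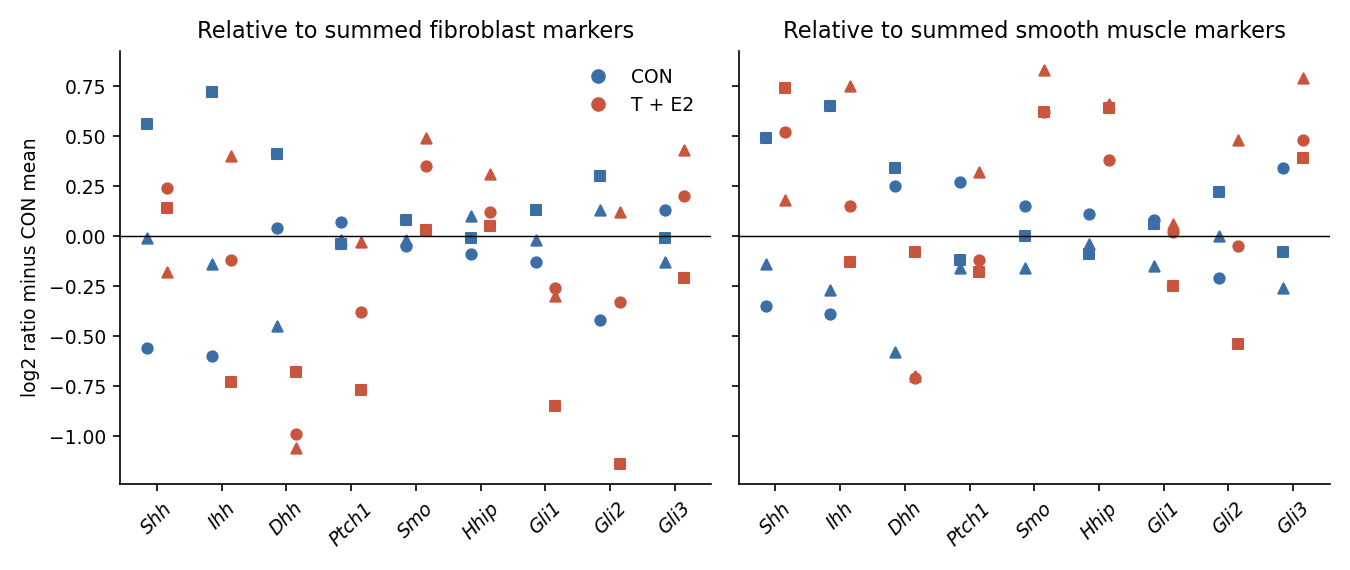
Log2 ratio of each Hedgehog pathway gene to the summed CPM of 6 fibroblast genes (left) and 7 smooth muscle genes (right) in each mouse, minus the mean of the CON group, with circles, squares and triangles for mice 1, 2 and 3. Against fibroblast genes, whose sum Dcn contributes most to, the T + E2 mice lie below the CON mice for Dhh and Gli1. Against smooth muscle genes they lie above them for Smo, Hhip and Gli3.

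Markers of other cell types that could carry Hedgehog ligand also differed between the groups. Of 6 urothelial genes, 4 were tested and 3 were higher. The list summed to 423.1 to 643.2 CPM in the CON group and 1374 to 1703 CPM in the T + E2 group, most of it from Upk1a and Upk1b. Upk1a had 273.7 to 502.5 and 1180 to 1422 CPM. To complete the list, Upk2 had 0.629 to 0.92 and 2.7 to 4.99 CPM, and Upk3b 0 to 1.13 and 0.801 to 8.83 CPM. The sum thus stands mainly for Upk1a and Upk1b, and whether it measures urothelium was not tested. Upk3a, at 0 in all CON mice, and Krt20 had 99 and 120 counts in T + E2 mouse 2 and at most 6 in the other mice. Shh, which urothelium also makes, had 3.64, 7.36 and 5.22 CPM in CON mice 1 to 3, beside list sums of 423.1, 643.2 and 513.5 CPM. In T + E2 mice 1 to 3 Shh had 6.36, 6.94 and 4.61 CPM, beside sums of 1703, 1594 and 1374 CPM. Every T + E2 sum was above that of CON mouse 2, which had the highest Shh value. The luminal epithelial list summed to 1943 to 2184 CPM in the CON group and 2328 to 2395 CPM in the T + E2 group, and the basal list to 154.8 to 257 and 245 to 312.9 CPM. The 4 luminal genes did not share a direction. Of these, 2 were higher, among them Epcam by 1.18 on the log2 scale, and Krt18 was lower by 0.54 (edgeR adjusted p = 0.000175 and 0.00704). Leukocyte and endothelial lists overlapped between the groups, at 61.2 to 97.2 against 79.7 to 113.9 CPM and at 74.9 to 108.4 against 94.3 to 116.4 CPM. The part of these cell types in the values of the Hedgehog pathway genes was not tested.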

How the data were processed

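RNA from the prostates of 6 mice was sequenced from paired-end libraries. The authors deposited whole-number counts per gene without normalization, and FPKM values per gene length and library total, in 1 table. Per the labels, TopHat, Bowtie2 and HTSeq were used. The authors compared groups with DESeq2. Genome build, annotation and use of strand were not given in the sources used here. Identifiers and coordinates were compared with GENCODE M21 on GRCm38, in which 34267 of the 34745 identifiers occur and 27686 have the same start and end. Coordinates are those of the table.

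For the group comparison the deposited counts went into edgeR 4.0.16 under R 4.3.3. Low genes were removed with filterByExpr, at a minimum count of 10 and a minimum total of 15, and the rest were scaled by TMM and compared by glmQLFit and glmQLFTest, two-sided, with Benjamini-Hochberg adjustment over 15580 genes. SE was derived from the F statistic and the log2 fold change, and intervals are unadjusted. Alternatives used DESeq2 1.42.0, limma 3.58.1 on log2(FPKM + pseudocount), with a pseudocount of 0.1 or 1 and genes reaching 0.1 FPKM in 3 mice, other scalings and filters, a replicate block, and each mouse left out. Leaving out both mice numbered 2, and M21 gene lengths, were added after the data were seen. Marker and pathway lists are sums or counts of listed genes. Similar transcripts were sought with BLAST+ 2.17.0+ (90% identity or more, 100 bases or longer), and matplotlib 3.10.9 drew the figures.

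The members and lists were chosen with earlier results of these data known. Named genes are the 9 members, listed pathway genes that passed (up to 4 a list), Sufu, Boc, Gas1 and Cdon, up to 3 genes of a marker list, and the 3 genes most like Gli1 and Shh. Genes named beyond this rule are marked in the text or are given only to complete a list. Some listed genes are not reported here, and no sum or count of a list includes them.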

Additional observations from a re-analysis of the deposited data

How the results depend on the processing

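Smo had a log2 fold change of 0.40 with the replicate number as a block and an adjusted p of 0.0525, so that 0 members and 4 listed pathway genes (Arl13b, Ccnd2, Hsd11b1 and Scube2) passed under this block. The shared numbers name different mice. Deviations from the group means correlated at -0.0516, 0.0275 and 0.0463 for equal numbers, and each CON mouse correlated best with a T + E2 mouse of another number. Seminal vesicle genes, however, were high only in the mice numbered 2. Whether mice of equal number shared handling was not tested. Under limma on log2(FPKM + 0.1) and on log2(FPKM + 1), 4 listed pathway genes passed too, but these were Ccnd2, Gas1, Prkaca and Scube2. Arl13b, Rpgrip1l, Hsd11b1 and Btrc passed under neither. On log2(FPKM + 1), 561 genes were DEGs. Without both mice numbered 2, 0 members passed (Smo 0.45), 1 listed pathway gene (Scube2) and 1354 of all genes passed, and Ihh (0.50) and Gli2 (0.02) changed sign. Fewer mice remained in that comparison. With each mouse left out in turn, 0 to 2 members, 2 to 7 listed pathway genes, 1929 to 2741 of all tested genes and 972 to 1152 DEGs passed. No member passed without CON mouse 2, CON mouse 3 or T + E2 mouse 1. The number of all genes was lowest without CON mouse 3 (1929) and without T + E2 mouse 2 (1978), and that of listed pathway genes was 2 without CON mouse 3, 3 without CON mouse 2 or T + E2 mouse 1 and 4 without T + E2 mouse 2. The log2 fold change then ranged from 0.35 to 0.45 for Smo, -0.42 to -0.18 for Ptch1, -0.07 to 0.43 for Shh and -0.34 to 0.31 for Ihh, with sign changes for Shh without CON mouse 1 (-0.07) and for Ihh without either mouse numbered 2 (0.31 and 0.10). Otherwise the cause of these changes was not tested. Other scalings, other filters on low counts, DESeq2 and limma left each member on its side of the threshold. Counts of 12 to 28 for Ihh, 22 to 59 for Dhh and 35 to 69 for Gli2 limit the precision for these genes.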

Other observations

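Of the 50 further pathway genes 5 had too few reads for the filter of the main test and are given as counts. Lrp2, an endocytic receptor that can bind Shh, had 0 counts in every CON mouse and 12, 8 and 4 counts in T + E2 mice 1 to 3. Mycn, a transcription factor reported as a Hedgehog target, had 4, 4 and 2 counts in the CON mice and 9, 11 and 19 counts in the T + E2 mice. For both genes the groups did not overlap, and they were picked out after their values were seen. Among the alternatives, both passed with no filter on low counts, and Lrp2 also passed under DESeq2. Foxl1 was counted only in T + E2 mouse 2, with 6 counts, and Grem1 and Scube3 had 0 to 6 and 2 to 11 counts per mouse.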
